A study of Saccharomyces cerevisiae with 2 samples.

Results

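The mitochondrial aminoacyl-tRNA synthetases and the factors that transcribe, stabilise and translate the mitochondrial genome were described by 32 nuclear genes of Saccharomyces cerevisiae. They were chosen by gene symbol, and all 32 were found among the 5659 genes with a read in either library and had a mean level of at least 1 RPKM, the filter used throughout. RPKM is the number of reads per kilobase of coding length and per M reads (M, mega). Transcripts were sequenced in ZGR3, a mutant with ZTW1 as its genetic background, and in ZTW1, a wild type bioethanol strain, with 1 library per strain. What is mutated in ZGR3 is not given in the labels. Cultures of 25 mL were started at an optical density of 0.05 in the rich medium YPD with glucose at 20 g/L, and both strains were collected on entry into early stationary phase, when the glucose-grown culture stops dividing rapidly. The ZGR3 library held 4.61 M gene-assigned reads and the ZTW1 library 4.66 M. With 1 library per strain no difference could be tested, so every interval below is a 95% counting interval that compares these libraries only.

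Yeast mitochondria keep a small genome that encodes a few subunits of the respiratory chain and the ATP synthase, and nearly everything needed to read that genome is made from nuclear genes and imported. A dedicated RNA polymerase with a specificity factor transcribes it, a dedicated set of synthetases charges the mitochondrial tRNAs, and bacterial-type initiation, elongation and release factors run translation. In budding yeast each mitochondrial mRNA in addition needs its own nuclear-encoded stabilising or activating proteins, without which its product is not made and the cell cannot respire.

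The 32 genes were mostly lower in ZGR3, by a modest amount. Their median log2 ratio, of RPKM + 1 in ZGR3 over RPKM + 1 in ZTW1, was −0.31, while the median of the 5532 genes that passed the filter was −0.02. Of the 32, 25 lay below 0, compared with 52% of all genes. The counting interval lay wholly below equality for 14 of the 32, where 19.8% of all genes did, and wholly above it for 2, where 17.9% of all genes did. After subtraction of the trend with coding length, or of chromosome medians, 13 of the 32 were lower in this way. In the same 2 settings 1016 and 1006 of the 5532 genes were, in that order, and 1098 without a correction. The calls of this kind depend on read number, and the 32 genes had a median of 77.5 reads in ZGR3 and 102 in ZTW1, below the 183 and 188 of all genes. By the rule of size used for the whole transcriptome, 2-fold on the RPKM + 1 scale, 1 of the 32 was lower, where 1.92% of all genes were, and none was higher, where 0.542% were, so the 2-fold counts are close to those of all genes. At 1.5-fold, 5 of the 32 were lower, MST1, MSW1, MTF1, AEP2 and CBP6, where 7.39% of all genes were, and none was higher, where 3.63% were. In bulk cultures, fewer transcripts per cell and fewer cells with the transcript cannot be told apart.

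Together the 32 genes took 5176 reads in ZGR3 and 6230 in ZTW1. By the Clopper-Pearson method this was 0.112% (0.109 to 0.115) of all ZGR3 reads and 0.134% (0.130 to 0.137) of all ZTW1 reads, a sum 1.19-fold lower in ZGR3 (1.15 to 1.24). TUF1 alone gave 26.7% of these reads in ZGR3 and 29.2% in ZTW1. The other 31 genes summed to 3792 reads in ZGR3 and 4408 in ZTW1, 1.15-fold lower in ZGR3 (1.10 to 1.20).

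Most of these genes were weakly expressed. Levels in ZGR3 spanned 3.67 to 228 RPKM, and levels in ZTW1 spanned 4.35 to 298 RPKM. The median of the 32 was 12.6 RPKM in ZGR3 and 13.7 RPKM in ZTW1, less than the 30.8 and 31.4 RPKM of all 5659 genes, and 26 of the 32 in ZGR3 and 27 in ZTW1 lay at or under those medians. TUF1 stood far above the rest in both libraries, followed by PET494 and MEF1 in that order in both. At the low end stood PET309, CBP1, IFM1, CBS1 and SLM5, the lowest 5 in both libraries though not in the same order. The counting error of these low genes is large, and the order among them is not resolved at this depth. FMT1 moved furthest in the order of levels, at place 10 in ZGR3, against place 24 in ZTW1. AEP2 and MST1 moved furthest down, to places 18 and 23 in ZGR3, against 10 and 15 in ZTW1.

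**Figure D1:**
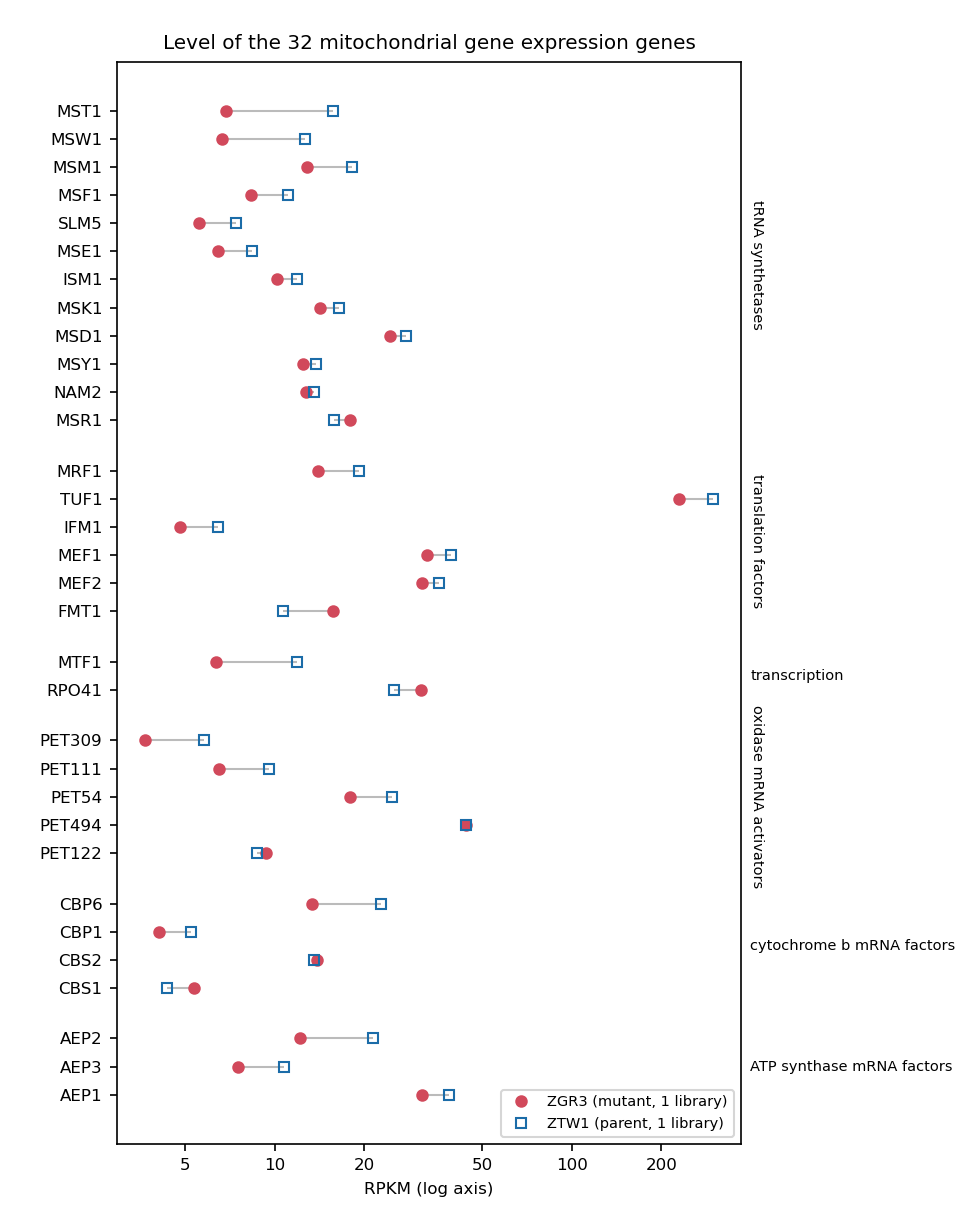
Level of each of the 32 genes in RPKM (log axis) in ZGR3 (filled circles) and ZTW1 (open squares), 1 library each, grouped by role and ordered within a role by log2 ratio. The circle lies left of the square for 25 genes, and TUF1 lies far right of the rest with 228 RPKM in ZGR3 and 298 RPKM in ZTW1.

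The 12 mitochondrial synthetases attach amino acids to mitochondrial tRNAs. Of these, 11 lay below 0, where 52% of all genes did, with a median log2 ratio of −0.27. Of the 12, 3 were lower beyond counting error, a share near the 19.8% of all genes, and none was higher, where 17.9% of all genes were. MST1, the threonyl enzyme on chromosome XI, had 44 reads and 6.87 RPKM in ZGR3, against 102 reads and 15.8 RPKM in ZTW1. It was 2.29-fold lower (1.60 to 3.34), with a log2 ratio of −1.09, and was the only one of the 32 past 2-fold. The reads covered 75.0% of its coding length in ZGR3 and 92.8% in ZTW1. Genes of chromosome XI as a whole had a median log2 ratio of −0.24, and relative to that median MST1 was at −0.85, no longer past 2-fold; the part of the chromosome in its value was not tested.

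MSW1, the tryptophanyl enzyme, had 35 reads in ZGR3 and 67 in ZTW1, or 6.66 and 12.6 RPKM in that order, and was 1.89-fold lower (1.24 to 2.94). MSM1, the methionyl enzyme, had 102 reads in ZGR3 and 147 in ZTW1 and was 1.43-fold lower (1.10 to 1.85). These 3 are the synthetases whose libraries differed by more than counting error. The next 3 had smaller differences and fewer reads than MSM1. MSF1, the phenylalanyl enzyme, had 54 reads in ZGR3 and 73 in ZTW1, with a log2 ratio of −0.38. SLM5, the asparaginyl enzyme, had 38 and 51 reads in the same order, at −0.35, and MSE1, the glutamyl enzyme, 48 and 63, at −0.33. Their intervals reached from 1.94-fold, 2.08-fold and 1.93-fold lower to slightly higher, so this depth could not show a difference.

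The remaining 6 differed least. MSD1, the aspartyl enzyme and the most abundant of the 12, had 24.5 RPKM in ZGR3 and 27.7 RPKM in ZTW1, from 223 and 255 reads, and was 1.13-fold lower (0.941 to 1.36). ISM1, the isoleucyl enzyme, was 1.17-fold lower (0.931 to 1.48), with 141 reads in ZGR3 and 167 in ZTW1. MSK1, the lysyl enzyme, which in this yeast also takes part in importing a cytosolic lysine tRNA, was 1.16-fold lower (0.899 to 1.51), with 113 reads in ZGR3 and 133 in ZTW1. For MSY1, the tyrosyl enzyme, with 85 and 95 reads in that order, and NAM2, with 158 and 170, the log2 ratios were −0.13 and −0.08. NAM2 is the leucyl enzyme and is known in addition to assist the splicing of mitochondrial introns. MSR1, the arginyl enzyme, was the 1 synthetase above 0, with 159 reads in ZGR3 and 142 in ZTW1, at 0.17 (1.13-fold higher, 0.897 to 1.43). For none of these 6 did the interval exclude equality.

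**Figure D2:**
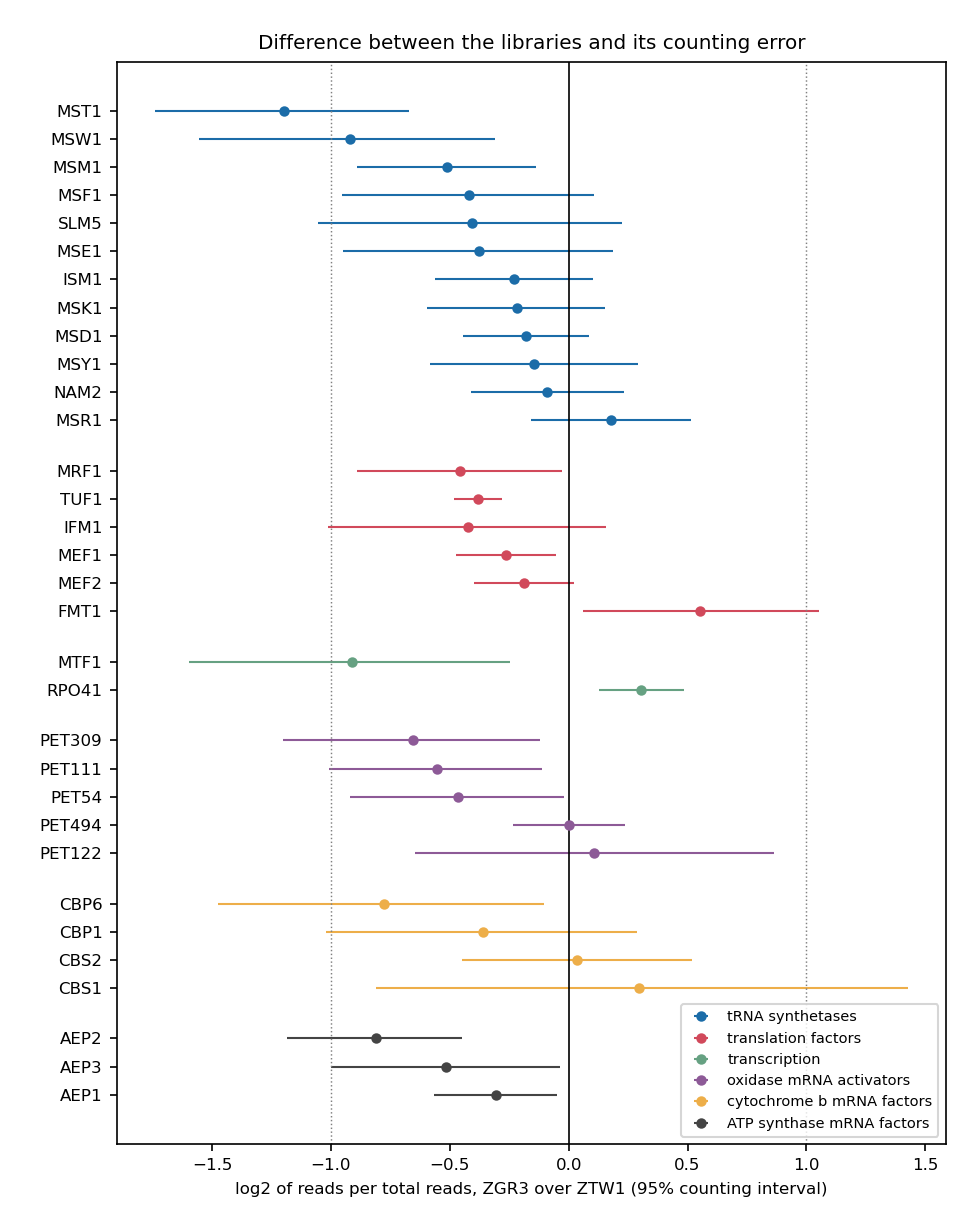
Log2 of reads per total reads in ZGR3 over ZTW1 for each of the 32 genes, with 95% counting intervals as horizontal bars, grouped and coloured by role; solid line, equality, and dotted lines, 2-fold. The intervals of 14 genes lie wholly left of equality and those of FMT1 and RPO41 wholly right of it.

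For each of the amino acids served by these 12 enzymes, a separate nuclear gene encodes the enzyme of the cytosol, and the pairs give a comparison that does not depend on how the libraries are scaled. The cytosolic genes lay mostly above 0, with a median log2 ratio of 0.17 and 11 of 13 above 0, where 48% of all genes were. Beyond counting error 7 were higher and none was lower, where 17.9% and 19.8% of all genes were. These genes had a median of 658 reads in ZGR3 and 560 in ZTW1, against 183 and 188 for all genes. Smaller differences could therefore be called. There are 13 pairs because phenylalanine has genes for both cytosolic subunits, FRS1 and FRS2, which were both set against MSF1. By reads, the mitochondrial gene was lower in ZGR3 relative to its partner in 12 of the 13, and for arginine it was level with its partner, with 0.224 reads of MSR1 per read of YDR341C in ZGR3 and 0.223 in ZTW1. The log2 ratio of the mitochondrial gene minus that of its partner had a median of −0.47. The counting interval of the ratio between the genes excluded equality in 8 of the 13, each time with the mitochondrial gene lower in ZGR3 relative to its partner. The 13 intervals are not adjusted for their number, and both MSF1 pairs share the same MSF1 reads.

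Threonine showed the widest gap. MST1 had 0.0257 reads for each read of THS1, its cytosolic partner, in ZGR3 and 0.0678 in ZTW1, 2.64-fold less (1.82 to 3.88), and THS1 itself was at 0.20. MSW1 had 0.222 reads per read of WRS1 in ZGR3 and 0.450 in ZTW1, 2.03-fold less (1.24 to 3.34). Asparagine followed with SLM5 1.61-fold less relative to DED81 (1.03 to 2.54), and lysine with MSK1 1.58-fold less relative to KRS1 (1.15 to 2.18). MSF1 was 1.58-fold less relative to FRS2 (1.06 to 2.34), but against FRS1 the interval of 1.33-fold included equality (0.898 to 1.97). The aspartate, methionine and leucine pairs were 1.43-fold, 1.42-fold and 1.38-fold less, with intervals of 1.18 to 1.74, 1.01 to 1.99 and 1.07 to 1.78. The glutamate, isoleucine, tyrosine and arginine pairs did not differ detectably at this depth.

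Per length, the cytosolic gene was the more abundant of the pair in all but 1 comparison. The smallest ratio of cytosolic to mitochondrial RPKM was 0.990, for MES1 over MSM1 in ZTW1, and the largest was 55.4, for DED81 over SLM5 in ZGR3. In each pair the mitochondrial gene also had fewer reads than the cytosolic gene in both libraries.

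**Figure D3:**
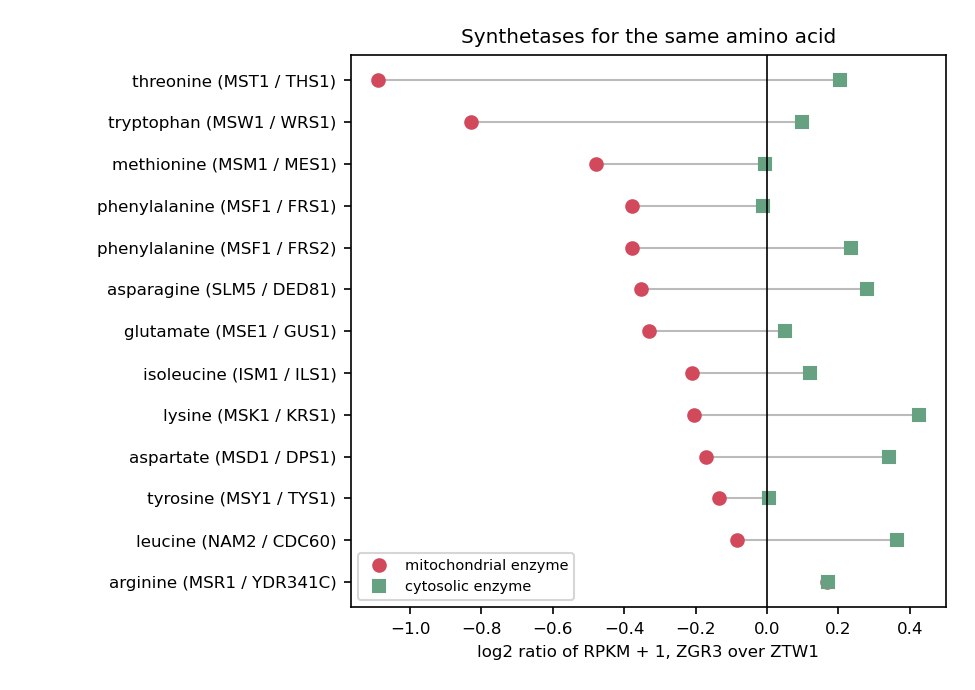
Log2 ratio of RPKM + 1 in ZGR3 over ZTW1 for the mitochondrial (circles) and cytosolic (squares) synthetase genes of each amino acid, 1 library per strain. The circle lies left of the square except for arginine, where both are at 0.17, and the gap is widest for threonine, −1.09 against 0.20.

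Of the 6 general translation factors, 5 lay below 0, where 52% of all genes did, with a median of −0.31. Beyond counting error 3 of the 6 were lower and 1 was higher, where 19.8% and 17.9% of all genes were. TUF1, the mitochondrial elongation factor Tu that carries charged tRNAs to the ribosome, is the best-measured of the 32 genes. It had 1384 reads and 228 RPKM in ZGR3, against 1822 reads and 298 RPKM in ZTW1, and was 1.30-fold lower (1.21 to 1.40). MEF1, the elongation factor G that moves the ribosome along, had 343 reads in ZGR3 and 416 in ZTW1, and was 1.20-fold lower (1.04 to 1.39). For MEF2, its relative, which is known to act in ribosome recycling, the reads were 356 in ZGR3 and 410 in ZTW1, and the interval included equality (1.14-fold lower, 0.986 to 1.32), though not after subtraction of the length trend (1.02 to 1.36). MRF1, the release factor that ends translation at stop codons, had 80 reads in ZGR3 and 111 in ZTW1, and was 1.37-fold lower (1.02 to 1.85). The elongation and release factors thus lay within a narrow band of log2 ratios, −0.43 to −0.18.

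The 2 genes of initiation differed in direction. IFM1, the initiation factor that brings the first tRNA to the ribosome, had 45 reads in ZGR3 and 61 in ZTW1, a log2 ratio of −0.36, with an interval that included equality (1.34-fold lower, 0.897 to 2.02). FMT1, which formylates the methionine on that tRNA, had 87 reads and 15.6 RPKM in ZGR3, against 60 reads and 10.7 RPKM in ZTW1. It was 1.47-fold higher (1.04 to 2.07), the highest log2 ratio of the 32 at 0.51. Its coverage went the other way, 91.6% of its length in ZGR3 and 94.9% in ZTW1.

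The mitochondrial RNA polymerase has only 2 nuclear genes, and they lay on opposite sides of equality. MTF1, the specificity factor that lets the polymerase recognise promoters, had 30 reads and 6.34 RPKM in ZGR3, against 57 reads and 11.9 RPKM in ZTW1, and was 1.88-fold lower (1.19 to 3.03). RPO41, the catalytic subunit, related to bacteriophage polymerases, had 582 reads and 31.1 RPKM in ZGR3, against 476 reads and 25.2 RPKM in ZTW1, and was 1.24-fold higher (1.09 to 1.40). There were 0.0515 reads of MTF1 per read of RPO41 in ZGR3 and 0.120 in ZTW1; this ratio was formed after the values of both genes were seen and is given as a description. RPO41 is the longest of the 32, with a coding length of 4056 bases. Long genes were higher in ZGR3 in general, and after subtraction of the length trend its log2 ratio was 0.19 in place of 0.30, while MTF1 stayed at −0.81 in place of −0.82.

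The 12 proteins that act on particular mitochondrial mRNAs had a median log2 ratio of −0.37. Of these, 7 were lower beyond counting error and none was higher, where 19.8% of all genes were lower and 17.9% higher. After subtraction of the trend with coding length the intervals of PET54 and CBP6 included equality. Their members fall into 3 sets by the complex whose subunits they serve. All 3 of the ATP synthase set were lower beyond counting error, 3 of 5 of the cytochrome oxidase set, and 1 of 4 of the cytochrome b set. With the length trend subtracted these were 3 of 3, 2 of 5 and 0 of 4, where 1016 of the 5532 genes were lower. Whether these shares differ was not tested.

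AEP2, needed for the mRNA of subunit 9 of the ATP synthase, had 98 reads and 12.2 RPKM in ZGR3, against 174 reads and 21.4 RPKM in ZTW1. It was 1.76-fold lower (1.36 to 2.27), the difference furthest from counting error among the activators. AEP1, which serves the translation of the same mRNA, had 224 reads in ZGR3 and 280 in ZTW1, and was 1.24-fold lower (1.03 to 1.48). AEP3, which stabilises the shared mRNA of subunits 6 and 8, had 63 reads in ZGR3 and 91 in ZTW1, and was 1.43-fold lower (1.02 to 2.002). The summed reads of the 3 genes were 385 in ZGR3 and 545 in ZTW1, 1.40-fold lower (1.23 to 1.60). The set does not hold every ATP synthase factor, as ATP22 and ATP25 were counted in other lists below. ATP22 had 188 reads in ZGR3 and 189 in ZTW1, with an interval that included equality (0.817 to 1.24 for the fold). ATP25 had 293 reads in ZGR3 and 350 in ZTW1, and was 1.18-fold lower (1.01 to 1.38).

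Among the cytochrome oxidase activators, each of the 3 mitochondrial subunits has its own proteins. PET309, which acts on the mRNA of subunit 1, had 49 reads and 3.67 RPKM in ZGR3, against 78 reads and 5.77 RPKM in ZTW1, and was 1.57-fold lower (1.09 to 2.30). PET111, which acts on the mRNA of subunit 2, had 72 reads in ZGR3 and 107 in ZTW1, and was 1.47-fold lower (1.08 to 2.01). Subunit 3 needs PET54, PET122 and PET494 together; whether these 3 differ from each other was not tested. PET54, which also helps splice an intron of the subunit 1 transcript, had 73 reads in ZGR3 and 102 in ZTW1, and was 1.38-fold lower (1.01 to 1.89). Its interval was close to equality, and it included equality after subtraction of the length trend (0.961 to 1.80) or of the median of chromosome VII (0.995 to 1.86). PET494 had 298 reads in ZGR3 and 301 in ZTW1, with a log2 ratio of 0.00 and an interval of 0.850 to 1.18 for the fold. PET122 had 33 reads in ZGR3 and 31 in ZTW1, at 0.10, with an interval from 0.639 to 1.82, too wide to show a change of the size seen for PET54.

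The 4 genes of cytochrome b expression were among the least read. CBP6, part of the complex that promotes translation of the cytochrome b mRNA and holds its product, had 30 reads and 13.3 RPKM in ZGR3, against 52 reads and 22.8 RPKM in ZTW1, and was 1.71-fold lower (1.07 to 2.78). It is the shortest of the 32, with a coding length of 489 bases, and short genes were lower in ZGR3 in general; its log2 ratio was −0.74, and −0.61 after subtraction of the length trend, when its interval included equality (0.987 to 2.56). CBP1, which protects the cytochrome b mRNA from degradation, had 37 reads in ZGR3 and 48 in ZTW1, with a log2 ratio of −0.30. CBS2 had 75 reads in ZGR3 and 74 in ZTW1, at 0.03, and CBS1 had 17 reads in ZGR3 and 14 in ZTW1, at 0.25; both activate translation of this mRNA. The interval for CBS1 ran from 0.570 to 2.69, the widest of the 32. The intervals of CBP1 and CBS1 both include a fold of the size found for CBP6.

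**Figure D4:**
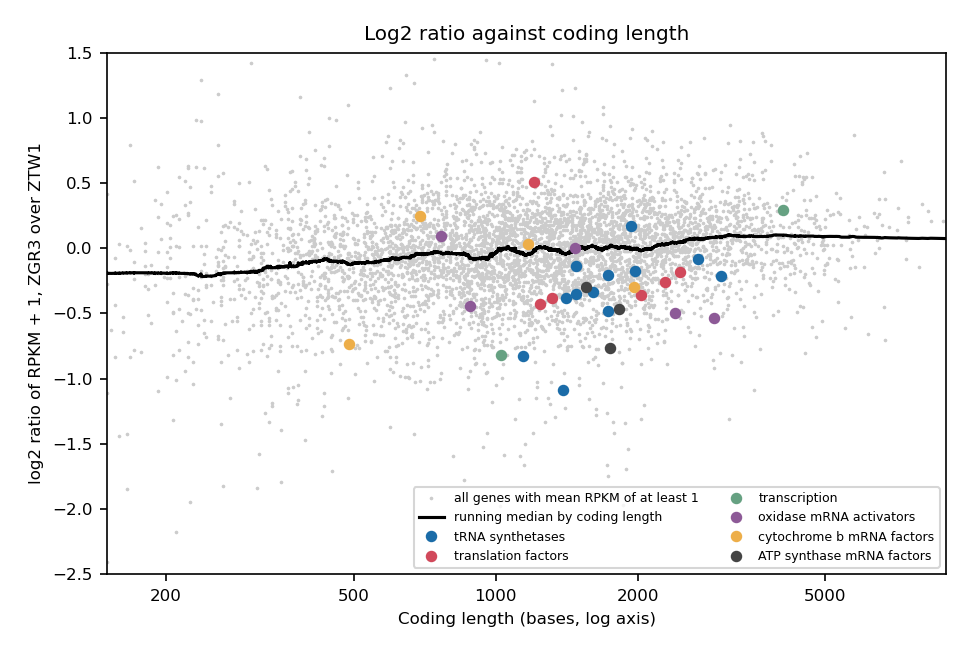
Log2 ratio of RPKM + 1 in ZGR3 over ZTW1 against coding length in bases (log axis) for all genes with a mean of at least 1 RPKM (grey) and the 32 genes (coloured by role), with the running median of all genes ordered by length as a line; a few genes outside the axes are not drawn. The line rises with length from below to above 0, and 25 of the 32 coloured points lie below it.

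Coding length and the number of reads were set beside the pattern. The median log2 ratio of all genes was −0.16 in the lowest and 0.09 in the highest of 10 equal classes of coding length. The 32 genes had a median coding length of 1584 bases, against 1236 for all genes, and their median log2 ratio was −0.32 after subtraction of the trend, with 25 of 32 still below 0. Among the 13 genes with a mean of at least 100 reads, 10 lay below 0, with a median of −0.21, and 5 were lower and 1 higher beyond counting error. Among the 19 with fewer reads, 15 lay below 0, with a median of −0.38, and 9 were lower and 1 higher. Of all genes, of any read number, 19.8% were lower and 17.9% higher in this way. Shares for all genes of like read number were not computed. The 32 genes lie on 14 chromosomes, and none overlaps another gene in the RefSeq annotation of assembly R64. Subtraction of the chromosome medians moved no log2 ratio by more than that of MST1, 0.24.

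Other genes that serve mitochondrial gene expression were set beside the 32. A list of 45 genes for tRNA modification and charging, translation, RNA processing and upkeep of mitochondrial DNA had a median log2 ratio of −0.21, with 35 below 0. Of all genes, 52% lay below 0. Of the 45, 14 were lower and 3 higher beyond counting error, where 19.8% and 17.9% of all genes were, and none was 2-fold apart. The 14 genes of RNA processing had a median of −0.24, with 13 below 0. Their furthest members were MTF2, a protein that interacts with the mitochondrial RNA polymerase, with 39 reads in ZGR3 and 78 in ZTW1 at −0.88, and CBT1, which takes part in processing the ends of mitochondrial transcripts, with 59 and 97 in the same order at −0.67. The 16 genes of translation had a median of −0.25, with RRF1, the ribosome recycling factor, at −0.91 from 19 reads in ZGR3 and 39 in ZTW1. MTG2, a GTPase of mitochondrial ribosome assembly, lay on the other side at 0.70, from 78 reads in ZGR3 and 46 in ZTW1, 1.71-fold higher (1.18 to 2.52).

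The 9 further genes for charging and tRNA modification had a median of −0.06, with 6 below 0, closer to the −0.02 of all genes. HER2, a subunit of the amidotransferase that makes glutaminyl-tRNA in mitochondria, was 1.62-fold lower (1.07 to 2.48), with 39 reads in ZGR3 and 64 in ZTW1. It was the only 1 of the 9 lower beyond counting error, where 19.8% of all genes were. Higher beyond it were 2, where 17.9% of all genes were. These were RPM2 (1.11-fold, 1.01 to 1.21) and another amidotransferase subunit, GTF1 (listed as YGR102C, 1.15-fold, 1.001 to 1.31). After subtraction of the length trend the log2 ratio of RPM2, with 3609 coding bases, was 0.05 in place of 0.14. That of GTF1, with 552, was 0.31 in place of 0.20. PET112, a further subunit, was at −0.04. AIM10, a putative prolyl-tRNA synthetase of mitochondria, was at −0.27 with 94 reads in ZGR3 and 116 in ZTW1, and its interval included equality. The 6 genes of mitochondrial DNA upkeep had a median of −0.15, and of −0.04 after subtraction of the length trend. HMI1, a helicase, was at −0.51 from 20 reads in ZGR3 and 33 in ZTW1, and MHR1, of recombination, at −0.23 from 140 and 167 in the same order, both within counting error. RIM1, with 672 reads in ZGR3 and 766 in ZTW1, was 1.13-fold lower (1.02 to 1.25). It was the only 1 of the 6 beyond counting error, where 19.8% of all genes were lower and 17.9% higher. RIM1 is short, with a coding length of 408 bases, and its log2 ratio of −0.17 was −0.07 after subtraction of the length trend. Above 0 lay 2 of the 6, where 48% of all genes did. For comparison, 69 genes of mitochondrial ribosomal proteins had a median of −0.41, with 64 below 0, where 52% of all genes were. Lower beyond counting error were 39 of the 69, where 19.8% of all genes were. Their median coding length was 660 bases, against 1584 for the 32 genes. After subtraction of the length trend the medians were −0.34 for the ribosomal genes and −0.32 for the 32. Whether these lists differ from the 32 genes could not be tested with 1 library per strain.

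**Figure D5:**
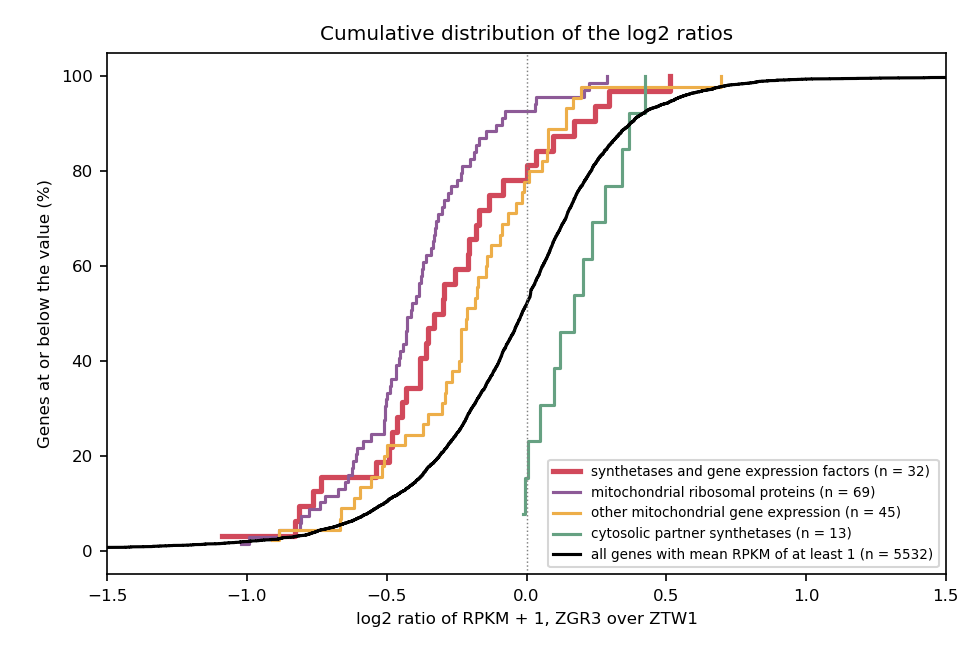
Percent of genes at or below each log2 ratio of RPKM + 1 in ZGR3 over ZTW1 for the 32 genes, 69 mitochondrial ribosomal protein genes, 45 other genes of mitochondrial gene expression, 13 cytosolic synthetase genes and all 5532 genes; values beyond 1.5 in size are not drawn. The 32 genes (median −0.31) lie left of all genes (−0.02), between the ribosomal protein genes (−0.41) and the other mitochondrial gene expression genes (−0.21), and the cytosolic genes lie to the right (0.17). The values drawn are not corrected for coding length. With the length trend subtracted, the medians of the 32 and of the shorter ribosomal protein genes were −0.32 and −0.34.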

How the data were processed

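The libraries, 1 of ZGR3 and 1 of ZTW1, were made from poly(A) RNA, per the labels' protocols. The deposited count is the number of unique reads of a gene, per the file headers, and the authors' RPKM could be recomputed from it, the coding length and the header total for all 5659 genes. The authors' coverage is the percent of a gene's length with reads, per the file headers. Genes missing from a table were set to 0 reads. Reads were placed on sacCer2 according to the submitters' processing notes; for aligner, filters and strand nothing is given in the sources used here, so antisense reads cannot be told apart. Names and chromosomes came from RefSeq R64 (5653 gene IDs matched, 6 did not); builds differ, so no coordinates are given. List genes were matched by symbol, or through that table for 4.

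Log2 ratios used a pseudocount of 1 RPKM, which understates differences of low genes, over 5532 genes with a mean of at least 1 RPKM. A fold compares shares of total reads, and its exact 95% interval was derived by the Clopper-Pearson method; ratios between 2 genes carry exact conditional odds ratio intervals. Reads carry no molecular identifiers, so all intervals cover counting error only. The length trend was a running median over genes ordered by coding length. All 32 genes were named. Of other lists, genes 2-fold apart or else the 2 furthest from 0 were named, with some others for comparison. The ribosomal list was taken by name pattern and holds MRP8, of other function. Members, lists and settings were chosen with earlier results of these data known. The steps were tested on simulated data. Alternatives were pseudocounts of 0.1 and 5 RPKM, no filter, a minimum of 10 RPKM, trimmed mean of M values (edgeR 4.0.16, R 4.3.3), median of ratios, centring, reads per M reads, length and chromosome corrections, and a 1.5-fold rule. Software was scipy 1.17.1, pandas 2.3.3, numpy 2.4.6 and matplotlib 3.10.9 under Python 3.11.15.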

Additional observations from a re-analysis of the deposited data

How the results depend on the processing

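Each of the 32 log2 ratios kept its sign under all 10 alternative settings that could be computed for it: 25 below 0 and 7 above. Pseudocounts, filters and reads per M reads cannot change a sign, however. The scalings and centring raised all ratios by about 0.02, too little to change a sign here. Only the corrections for coding length and chromosome could have changed one. The scalings moved all genes little, with shifts of 0.02 (log2) for both trimmed mean of M values and median of ratios. With a pseudocount of 5 RPKM the median of the 32 genes was −0.23, that of the mitochondrial ribosomal genes −0.37 and that of the other mitochondrial gene expression genes −0.17, and 0 of the 32 were 2-fold lower, as a larger pseudocount shrinks the ratios of low genes by construction. At a mean of at least 10 RPKM 20 of the 32 genes were left, 15 below 0 and 9 lower beyond counting error, with a median of −0.21. Of all genes at the main filter of 1 RPKM, 52% lay below 0 and 19.8% were lower beyond counting error. Correction for coding length put the ribosomal median at −0.34, and subtraction of chromosome medians put it at −0.37 and left 0 of the 32 genes 2-fold lower. A 1.5-fold rule called 5 of the 32 lower. Correction for coding length changed the calls by counting interval of 3 of the 32 genes (PET54 and CBP6 lost, MEF2 gained). Chromosome medians changed that of PET54. Each left 13 of the 32 lower, where 1016 and 1006 of the 5532 genes were, in that order. The other settings left the counts and medians within 1.5 times or within counting error. No paired analysis was possible because each strain has 1 library, and for the same reason no library could be left out. Depth limits the low genes most: the upper bound of the fold was 4.72 times the lower for CBS1 and 1.15 times for TUF1.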

Other observations

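Of 6 regulators known to act on nuclear genes for mitochondrial proteins, 5 lay below 0, where 52% of all genes did. Their median log2 ratio was −0.13, and −0.01 after subtraction of chromosome medians, close to the −0.02 of all genes. With the length trend subtracted it was −0.11, with 4 of the 6 below 0. Without either subtraction, 2 of the 6 were lower beyond counting error, where 19.8% of all genes were. HAP4, the activating subunit of the Hap complex that raises respiratory genes when glucose runs out, had 1855 reads in ZGR3 and 2203 in ZTW1, and was 1.17-fold lower (1.10 to 1.25). HAP1, the heme-responsive activator, had 1935 reads in ZGR3 and 2279 in ZTW1, and was 1.16-fold lower (1.10 to 1.24). The log2 ratios of HAP4 and HAP1, −0.23 and −0.22, lay above the lower quartile of all genes, −0.24. Both calls rest on read numbers far above the medians of all genes, 183 in ZGR3 and 188 in ZTW1. PUF3, whose product binds mRNAs of mitochondrial proteins in this yeast, had 514 reads in ZGR3 and 522 in ZTW1, with a log2 ratio of −0.01. Of the other subunits of the Hap complex, HAP2 had 283 reads in ZGR3 and 253 in ZTW1, at 0.18, HAP5 had 110 in ZGR3 and 114 in ZTW1, at −0.03, and HAP3 had 55 in ZGR3 and 65 in ZTW1, at −0.22, all with intervals that included equality.

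The mitochondrial transcripts on which the 32 genes act could not be compared. Yeast mitochondrial mRNAs carry no poly(A) tail and the libraries were made from poly(A) RNA. Mitochondrially encoded genes with any read numbered 7 and held 24 reads in ZGR3 and 32 in ZTW1, of which OLI1, for subunit 9 of the ATP synthase, had 14 in ZGR3 and 20 in ZTW1.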
